A study of Mus musculus with 13 samples.

Results

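The sample labels divide the oocyte libraries of the 0.5 Gy time course, from P5 female CD-1 mice, into a first and a second generation. The comparison described here set the 3 libraries of the first generation of 0.5 Gy, taken at 0, 1 and 4 h, against the 3 libraries of the second generation of the same dose and time points, each library being paired with the one of the same time. These are 6 of the 13 libraries of the series. They were chosen by their labels alone. The question was which genes and gene classes separated the generations whatever the time after irradiation. CD-1 is an outbred stock, and in both generations whole ovaries were cultured overnight, γ-irradiated from a caesium source and dissociated with trypsin. The 0 h libraries are the controls, which the paper's results describe as prepared before γ-irradiation. Its methods list 0 h among the times after it. The oocytes were then freed of follicular cells by repeated centrifugation, so that each library holds pooled oocytes and any somatic cells left among them. No genotype, transgene or second agent is given for either group. The labels do not say what a generation is, and any animals, reagents or days of work that differed between the generations cannot be told apart from it. Nothing states that the libraries of a generation came from separate collections, so p-values measure the spread between these libraries only. The remaining 7 libraries took no part in the fit of the comparison. They are the 2.5 and 6 h libraries of the second generation and the 5 libraries of 0.2 Gy, which form the third generation, and they enter an alternative fit of all 13 libraries, the common scaling of the levels, the search for libraries that stand apart within the second generation, and counts and levels set beside those of the 6.

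The oocytes of a P5 mouse ovary are arrested in the dictyate stage of meiotic prophase, most of them inside primordial follicles with a few flat pregranulosa cells, while the first ones have begun to grow. A growing oocyte accumulates transcripts for zona pellucida proteins, for the secreted factors Gdf9 and Bmp15 and for the subcortical maternal complex. Stroma, endothelium and blood cells surround the follicles, and their RNA can enter an oocyte preparation. Ribosomal protein genes and many other abundant genes have processed pseudogenes, copies made from the spliced mRNA, and a short read from the transcript cannot always be assigned to one copy.

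The first-generation libraries held 26081298, 26499249 and 26203391 estimated reads at 0, 1 and 4 h, and the second-generation libraries 15709549, 27736274 and 28169108. The second-generation 0 h library was thus the shallowest of the 6. Mitochondrial genes took 4.83 to 5.18% of the reads in the first generation and 5.06 to 7.28% in the second, with the highest share in the shallow library. In the sequencing list of the study, the read totals of the 1 and 4 h libraries stand under the opposite generation to that of the labels, whereas the numbers of detected transcripts in the same list stand under the labelled one. The labels were followed throughout, and the result of the other assignment is given at the end. The markers Gdf9 and Bmp15 were detected in all 6 libraries. Levels are given as CPM, the reads of a gene relative to the scaled library total. The summed level of 20 oocyte identity genes was 5283, 6090 and 5143 CPM at 0, 1 and 4 h in the first generation. In the second it was 4723, 4794 and 4556 CPM, below the first in every library. The labelled cell type was thus found in all 6 libraries.

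Of 22715 genes tested with edgeR's quasi-likelihood model with time point as a block, 21 (0.0924%) were called. A call needed a Benjamini-Hochberg adjusted p below 0.05 together with a difference of more than 1 on the log2 scale. Of these 15 were higher in the second generation (0.066% of the genes) and 6 were lower (0.0264%). All 11 called protein-coding genes were higher in the second generation. The 10 others were pseudogenes and long non-coding RNAs, 4 of them higher and 6 lower. In 20 of the 21 the 3 libraries of one generation did not overlap with those of the other. In 20 the difference was larger than the spread over time within either generation. Both counts come from the libraries that gave the calls, so they add no support to them. Among all genes tested, the 3 second-generation libraries lay above the first generation in 7.58% and below it in 9.57%. Without a threshold on the adjusted p, 2313 genes (10.2%) had an unadjusted p under 0.05. Leaving out the first-generation 1 h library left 6 called genes, and leaving out that of the second generation gave 14. Without a 0 h library there were 119 and 121, and without a 4 h library 42 and 47. With time as a block, the partner of a library left out adds nothing to the fitted generation difference. Each such fit thus removes the pair of its time point, and the number rests on single pairs. The part of a single library cannot be read from these fits.

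**Figure D1:**
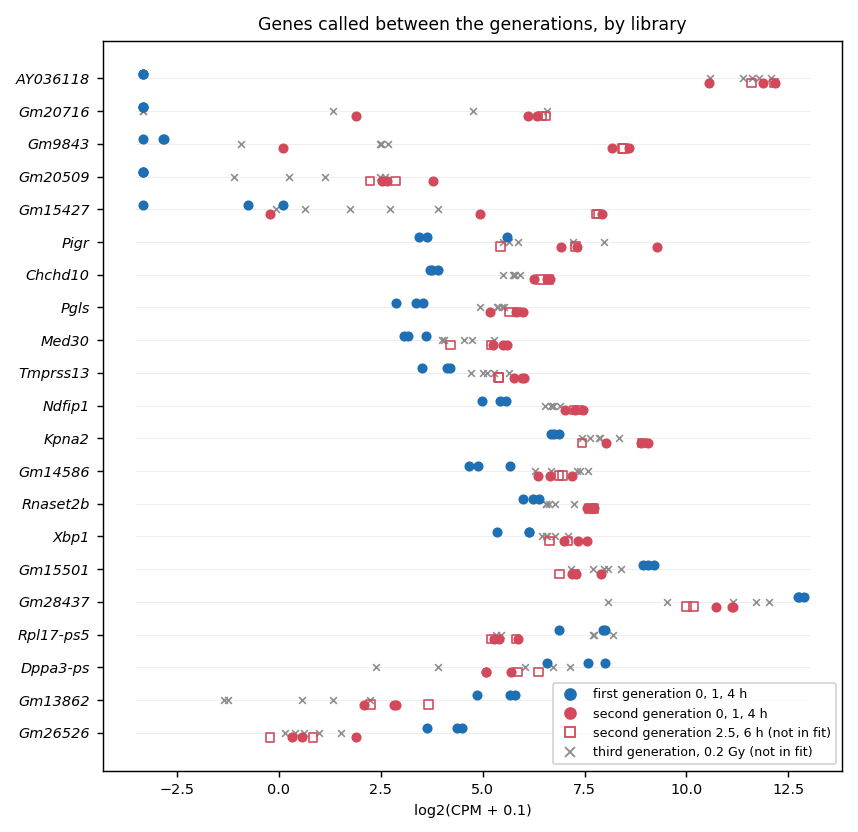
Level of each of the 21 called genes as log2(CPM + 0.1) (horizontal axis), with 1 point per library, filled blue for the first and red for the second generation at 0, 1 and 4 h, open red squares for the second-generation libraries of 2.5 and 6 h and grey crosses for the 0.2 Gy libraries. The filled points of the generations overlap in Gm15427 and in no other gene.

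Pigr had the largest difference among the called genes with less than 50% of their 30-base windows in other genes. It encodes the polymeric immunoglobulin receptor, which carries antibodies across epithelia, and lies at chr1:130826684-130852249 (GRCm38). Its level was 48.3, 10.8 and 12.4 CPM at 0, 1 and 4 h in the first generation and 615, 159 and 122 CPM in the second. The level was therefore highest at 0 h in both generations, and the 3 second-generation libraries lay above all of the first. The log2 fold change was 3.65 ± 0.20 (SE, n = 3 pairs; adjusted p = 0.00148). The 2 second-generation libraries that were not tested stood at 43.3 CPM at 2.5 h, within the first-generation range, and at 155 CPM at 6 h.

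Chchd10, a small protein of the mitochondrial intermembrane space, differed with less spread. It lies at chr10:75933130-75937747. The first generation had 14.9, 13.3 and 12.9 CPM and the second 77.1, 101 and 94.9 CPM. The libraries of a generation stood close together at all times, and the log2 fold change was 2.76 ± 0.21 (SE; adjusted p = 0.00595). The untested second-generation libraries, with 97.6 and 85.3 CPM, lay in the range of their own generation. Chchd10 was called in 15 of 17 alternative fits that kept the labels, and its adjusted p reached at most 0.0889. Among the 17 is the main fit without its threshold on the log2 fold change, which could lose no call.

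Med30, a subunit of the Mediator complex, which links transcription factors to RNA polymerase II, had 12.2, 8.93 and 8.32 CPM in the first generation and 45.1, 48.1 and 38.3 CPM in the second. Its log2 fold change was 2.20 ± 0.24 (SE; adjusted p = 0.039). The groups were well apart, but the untested 6 h library stood at 18.5 CPM, between them. Pgls encodes 6-phosphogluconolactonase of the pentose phosphate pathway, and its levels were 10.2, 11.5 and 7.23 CPM against 36.3, 63.5 and 56.4 CPM. Its log2 fold change was 2.45 ± 0.28 (SE; adjusted p = 0.0412). A share of 19.6% of its 30-base windows also occurs in other genes, so part of its reads could have been assigned elsewhere.

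Tmprss13, a membrane-anchored serine protease, had 11.4, 18.4 and 17.5 CPM in the first generation and 64.6, 62.3 and 54.4 CPM in the second (log2 fold change 2.00 ± 0.24, SE; adjusted p = 0.0485). Ndfip1 is an adaptor of Nedd4-family ubiquitin ligases. Its levels of 43.0, 47.5 and 31.5 CPM in the first generation stood against 176, 130 and 154 CPM. In both genes the lowest second-generation library was above 2 times the highest of the first, and for Ndfip1 the log2 fold change was 1.96 ± 0.22 (SE; adjusted p = 0.039). Xbp1, a transcription factor of the unfolded protein response, had 70.7, 70.3 and 40.5 CPM in the first generation and 190, 163 and 127 CPM in the second. Among the times compared it was lowest at 4 h in both generations, and the untested second-generation library of 6 h stood lower, at 99.3 CPM. Xbp1 passed the test only narrowly, with a log2 fold change of 1.46 ± 0.18 (SE; adjusted p = 0.0486), and was called in 8 of 17 alternative fits.

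Rnaset2b and its near-identical neighbour Rnaset2a encode lysosomal ribonucleases. Rnaset2b had 83.2, 75.1 and 63.1 CPM in the first generation and 211, 188 and 208 CPM in the second, with a log2 fold change of 1.49 ± 0.18 (SE; adjusted p = 0.0452). Summing both genes removed the uncertainty between them and left the log2 fold change at 1.49 (adjusted p = 0.034). Gm26526, a long intergenic RNA at chr7:39588518-39591679 with almost no sequence in common with other genes, was lower in the second generation. Its levels were 22.6, 20.6 and 12.4 CPM against 3.62, 1.39 and 1.15 CPM, and the log2 fold change was -3.28 ± 0.38 (SE; adjusted p = 0.0413). It stayed low in the untested second-generation libraries, at 0.764 and 1.69 CPM. The pseudogene Gm13862, 46.4% of whose windows occur in other genes, was lower as well, with 50.8, 29.2 and 55.6 CPM against 6.97, 4.17 and 7.18 CPM (log2 fold change -2.84 ± 0.23, SE; adjusted p = 0.00823).

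Most of the other called genes were annotated copies of another gene. A read of 30 bases from a stretch that 2 genes share has no unique source of its own, so the share of the 30-base windows of each gene that occur in at least 1 other gene was computed from the transcript sequences. The sources differ on whether the reads were paired, and a mate outside such a stretch could place a read, so this share is not the share of reads without a unique source. Of the 21 called genes 11 shared at least 50% of their windows, which was 0.530% of the 2075 tested genes of that kind. Another 3 shared 10 to 50%, or 0.111% of 2713 genes, and 7 shared less than 10%, or 0.0391% of 17903 genes.

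Fau and Gm9843 are one such pair. Fau encodes a ribosomal protein made as a fusion with a ubiquitin-like protein. Gm9843 is a processed pseudogene of 402 bases at chr16:76403251-76403652, and the whole of it is contained in Fau transcripts, whose coding sequence with the stop codon also has 402 bases. The start of the coding sequence, the start codon in capitals, is the same on chr19:6058251-6058280 (+ strand) and on chr16:76403623-76403652 (- strand) of GRCm38. It is shown because a 30-base read of it fits both genes equally:
Fau: ATGcagctctttgtccgcgcccaggaacta
Gm9843: ATGcagctctttgtccgcgcccaggaacta
Gm9843 held 2 estimated reads in the whole first generation. In the second generation it stood at 0.976, 289 and 382 CPM at 0, 1 and 4 h. Its mean there was at least 1854-fold above a floor of 3 reads per library, but its lowest library only at least 7.88-fold. Fau showed the opposite, with 631, 580 and 574 CPM against 203, 105 and 57.5 CPM. Of the summed reads of both genes, Gm9843 was assigned 73.4% and 86.9% in the second-generation libraries of 1 and 4 h and 0.478% in that of 0 h, so that the assignment changed between libraries of the same generation. The sum of both genes, 631, 580 and 574 CPM against 204, 394 and 440 CPM, had a log2 fold change of -0.83 ± 0.25 (SE; adjusted p = 0.354) and was not called.

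The same held for further pairs. Gm20716, whose transcripts share sequence with those of Adnp, a chromatin-bound zinc finger protein, had no reads in the first generation. In the second it had 3.62, 69.0 and 80.4 CPM. The mean was at least 422-fold above the floor and the lowest library at least 29.3-fold. The sum of Gm20716 and Adnp had a log2 fold change of -0.24 (adjusted p = 0.662). Kpna2, an importin that carries proteins into the nucleus, had 102, 108 and 117 CPM against 258, 472 and 528 CPM (log2 fold change 1.92 ± 0.22, SE; adjusted p = 0.0412). With its copies Gm10184 and Gm10259 it was at 764, 856 and 977 CPM against 1180, 987 and 1167 CPM, and the log2 fold change of the sum was 0.39 (adjusted p = 0.458). Among these families the call was therefore lost once their genes were counted together.

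Gm28437, a nuclear copy of mitochondrial sequence, had 6955, 7592 and 6849 CPM in the first generation and 2211, 2252 and 1699 CPM in the second (log2 fold change -1.77 ± 0.15, SE; adjusted p = 0.0113). Together with mt-Co3, a subunit of cytochrome c oxidase encoded by the mitochondrial genome, its log2 fold change was -0.22 (adjusted p = 0.672). AY036118 lies at chr17:39847113-39848035, inside an annotated ribosomal RNA gene. It had no read in any first-generation library and 1512, 4576 and 3790 CPM in the second generation. Its mean there was at least 27225-fold above the floor and its lowest library at least 12213-fold. The sum with that ribosomal RNA gene had a log2 fold change of 0.91 (adjusted p = 0.364). Of the remaining copies, Gm15427 and Gm14586 were higher and Dppa3-ps, Rpl17-ps5 and Gm15501 were lower. With Dppa3, the family of Dppa3-ps had a log2 fold change of -0.56 (adjusted p = 0.32), and with Rpl17 that of Rpl17-ps5 had -0.68 (adjusted p = 0.289). The families of Gm15427 and Gm14586 lay on the lower side, opposite to the genes themselves. None of the families of these 5 genes was called.

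Gm20509 has 95.0% of its windows in common with other genes and forms a family with Khdc3, a member of the subcortical maternal complex of the oocyte. Gm20509 had no read in the first generation and 13.7, 6.15 and 5.69 CPM in the second. Khdc3 lay on the same side, with 25.8, 14.1 and 6.6 CPM against 58.8, 67.4 and 51.2 CPM (log2 fold change 2.16 ± 0.35, SE; adjusted p = 0.109). The sum of both stood at 25.8, 14.1 and 6.6 CPM against 72.5, 73.5 and 56.9 CPM. Its log2 fold change of 2.34 ± 0.31 (SE) had an adjusted p of 0.0535, just outside the threshold, and the groups did not overlap.

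**Figure D2:**
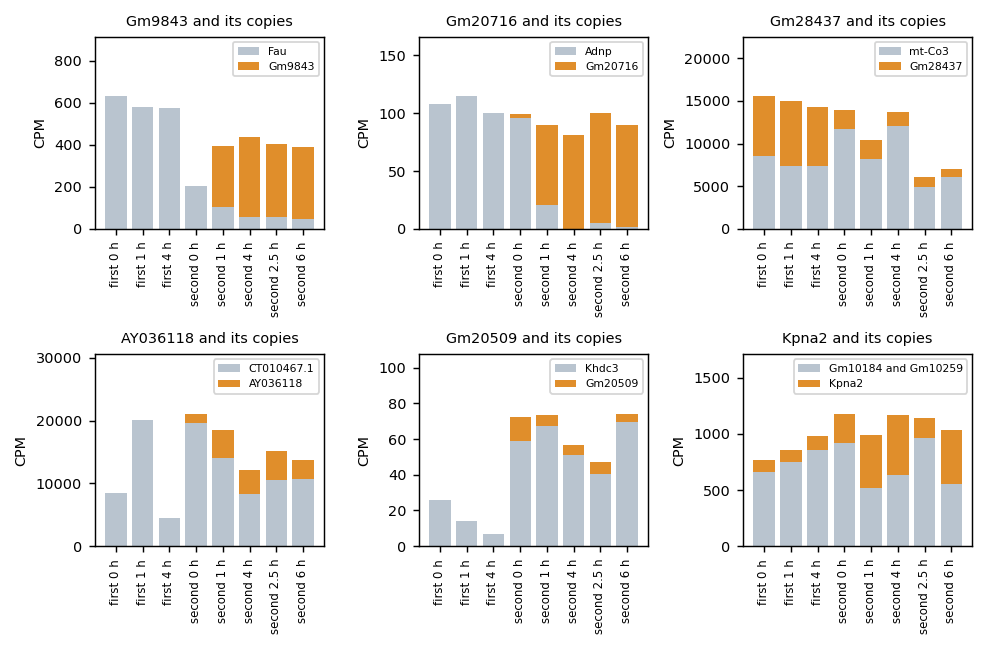
Summed level (CPM, vertical axis) of 6 families of genes with shared sequence in the first- and second-generation libraries, with the reads assigned to the called gene in orange and those of the other genes of its family in grey. Gm9843 took up 73.4% and 86.9% of the reads of Fau and Gm9843 together at 1 and 4 h of the second generation and almost none in the first, while the sum of that pair differed far less, and the sum of Gm20509 and Khdc3 was higher in the second generation at every time.

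When genes sharing at least 50% of their windows were summed into families, 21247 families were tested and 11 were called, 9 higher (0.0424% of the families) and 2 lower (0.00941%). Of the genes called singly, 10 were among them. These were Pigr, Chchd10, Pgls, Med30, Tmprss13, Ndfip1, Rnaset2b, Xbp1, Gm13862 and Gm26526. Ccnj, a cyclin, was called in addition, and its levels were 0.17, 0 and 0 CPM in the first generation and 9.62, 16.7 and 3.12 CPM in the second. Genes nearly absent from one generation mostly shared sequence with other genes. At most 1 read in every first-generation library and at least 10 in every second-generation library were found for 13 genes, and all 13 shared at least 50% of their windows. The opposite was found for 4 genes, Gm10553, Gm17334, Hist1h2ao and Mir763, of which 2 shared as much.

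**Figure D3:**
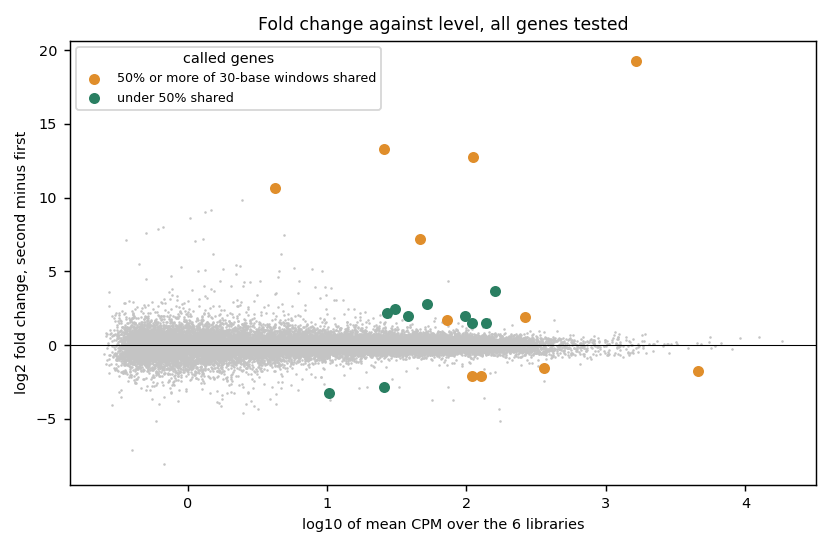
Log2 fold change of the second against the first generation for each of the 22715 genes tested (vertical axis) by the log10 of its mean CPM over the 6 libraries (horizontal axis), with called genes in orange where at least 50% of their 30-base windows are shared and in green otherwise. The 5 called genes with the highest values are all among the 11 in orange.

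Further genes with little shared sequence came close to the threshold. The examples given were chosen after their values were seen. Cpeb1, which controls the polyadenylation and translation of stored oocyte mRNAs, had 124, 140 and 105 CPM in the first generation and 309, 287 and 310 CPM in the second (log2 fold change 1.34 ± 0.18, SE; adjusted p = 0.0622). Btg1, an antiproliferative factor that promotes mRNA decay, had 382, 369 and 355 CPM against 188, 176 and 162 CPM (log2 fold change -1.04 ± 0.16, SE; adjusted p = 0.098). Neither was called, although in both the groups were apart by more than the spread within them. The untested second-generation libraries stood at 282 and 260 CPM for Cpeb1 and at 205 and 175 CPM for Btg1, on the side of their own generation.

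The 2.5 and 6 h libraries of the second generation had no part in calling these genes. Of the 21 called genes, 19 had a log2 level nearer to the mean of the second than of the first generation at 2.5 h and 19 at 6 h, and 17 at both times. Of all 22715 genes, 8480 were nearer at both times. Over all genes tested this share was 57.0% at 2.5 h and 56.5% at 6 h. In the 5 libraries of 0.2 Gy, which differ from both groups in dose, 18, 12, 15, 18 and 14 of the 21 lay nearer to the second generation, in the order of time, beside 51.6 to 54.9% of all genes. At 1 h this was 57.1% of the called genes.

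Beyond single genes, the distances between generations overlapped with those within a generation. Among 12670 protein-coding genes with a mean of at least 3 CPM, the log2 difference between the generations had an SD of 0.78, 0.61 and 0.66 in the pairs of 0, 1 and 4 h. Between libraries of the same generation it was 0.56 to 0.63 in the first and 0.61 to 0.79 in the second. The log2 differences of the 3 time points had correlations across genes of 0.23 between 0 and 1 h, 0.09 between 0 and 4 h and 0.23 between 1 and 4 h. These describe genes, which are not independent replicates. They correlated with the GC content of the gene by -0.21 at 0 h, 0.11 at 1 h and 0.25 at 4 h, so that the relation to base composition changed its sign between the pairs, and its part in the differences was not tested. At 0 h 13.9% of these genes differed more than 2-fold, against 7.19% at 1 h and 8.50% at 4 h. Over all genes tested, the 3 second-generation libraries lay above the 3 of the first in 1722 genes (7.58%) and below them in 2173 (9.57%), and these shares are the background for the gene groups that follow. Members named in these groups, other than the most abundant 2 of each, are named after their values were seen. None of the groups had a called member apart from Xbp1, so for single members the text gives levels.

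A group with many members on the lower side was that of the cytosolic ribosomal proteins, which build the 2 subunits of the ribosome. Of 74 genes, 36 (48.6%) lay lower in all second-generation libraries and 2 higher. The median log2 fold change of the 74 was -0.39, and by time point the median difference was -0.80, -0.40 and -0.12 at 0, 1 and 4 h. The difference was thus smallest at 4 h. In the alternative fits that kept the labels, the median of the genes lay between -0.55 and -0.25. As many pseudogenes share their sequence, the genes were also described as families with their copies. Of 73 families, 65 (89.0%) were lower in all 3 second-generation libraries, beside 9.52% of all families, and 0 were higher, beside 7.51% of all families. The median log2 fold change of the 73 families was -0.54, beside 0.00 for all families. No family was called with edgeR's test. The smallest adjusted p was 0.238, and 57 of the 73 had an unadjusted p under 0.05.

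The summed level of the ribosomal families was 73633, 66663 and 65015 CPM in the first generation and 38862, 47705 and 53996 CPM in the second. It was lowest at 4 h in the first generation and highest at 4 h in the second. Rpl32 and Rps14 were the most abundant members of the gene list. Rpl32, of the large subunit, had 1948, 1769 and 1876 CPM against 1011, 1249 and 1592 CPM (log2 fold change -0.53 ± 0.18, SE; adjusted p = 0.422). Rps14, of the small subunit, had 1884, 1758 and 1667 CPM against 915, 1189 and 1456 CPM (log2 fold change -0.57 ± 0.20, SE; adjusted p = 0.422). Over the times compared, both came nearer to the first generation but did not reach it. In the untested second-generation library of 6 h both stood lower than at 4 h, with 1266 CPM for Rpl32 and 1248 CPM for Rps14. The family of Rps2, summed with its pseudogene copies, overlapped between the generations, with 427, 678 and 463 CPM against 427, 524 and 626 CPM.

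The ribosomal families held the same position in libraries outside the comparison. Below all 3 first-generation libraries were 72 of 73 families at 2.5 h and 72 at 6 h of the second generation, where 31.9% and 29.3% of all families were. In the 0.2 Gy libraries, the number was 70, 72, 70, 72 and 63 in the order of time, beside 29.3 to 32.4% of all families. Relative to the mean of the first generation, the median family stood at log2 values of -0.79, -0.52 and -0.34 in the second generation at 0, 1 and 4 h, at -0.56 and -0.57 in its 2.5 and 6 h libraries and between -0.62 and -0.40 in the 0.2 Gy libraries. The first generation was thus the one that stood apart from the other 10 libraries. Without any single library of the comparison, the number of families lower in the second generation was 65 to 70, beside 13.2 to 16.8% of all families when 1 library was left out.

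**Figure D4:**
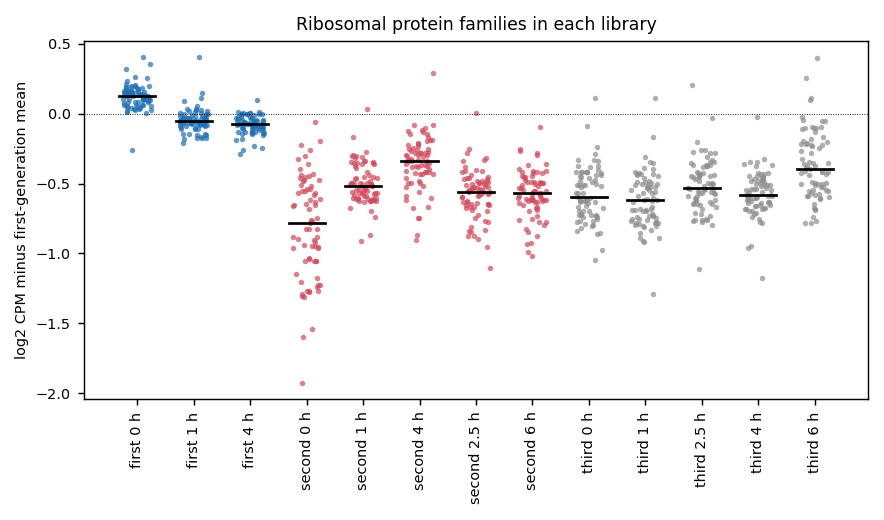
Log2 level of each of 73 ribosomal protein families relative to its mean in the first generation (vertical axis) in each library of the series, by generation and time (horizontal axis), with the median marked. The medians are -0.08 to 0.13 in the first generation and -0.79 to -0.34 in all other libraries.

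Nuclear genes of the respiratory chain, whose products join the mitochondrially encoded subunits in the inner membrane, lay on the same side. Of 84 genes tested, 43 (51.2%) were lower in all second-generation libraries, and the median log2 fold change was -0.29. By complex the numbers were 22 of 37 for complex I, 2 of 4 for complex II, 4 of 9 for complex III, 7 of 16 for cytochrome c oxidase and 8 of 18 for ATP synthase. An example is Ndufa4, with 358, 365 and 309 CPM against 306, 236 and 252 CPM. Higher in all libraries were 6 genes, among them Sdha, Atp5b, Atp5a1, Uqcrc2 and Uqcrfs1. Sdha, the catalytic subunit of succinate dehydrogenase, had 179, 204 and 216 CPM against 269, 269 and 315 CPM. The 13 mitochondrially encoded genes had a median log2 fold change of 0.11, with 2 of them higher and 0 lower in all libraries.

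Transcript length moved with these groups. Of the 84 respiratory genes 80, and of the 74 ribosomal genes 73, belong to the shortest of 5 equal classes of the protein-coding genes, with at most 1484 bases. Of the 3409 genes of that class 652 (19.1%) were lower in all second-generation libraries. Without both groups it was 575 of 3256 (17.7%), above the background of 9.57% and below the share in either group. Of the 3407 genes in the longest class, 247 (7.25%) were lower. The part of length in the difference of the ribosomal and respiratory genes was not tested. Without single libraries, 43 to 54 of the 84 respiratory genes were lower, beside 13.2 to 16.8% of all genes in the same fits, and in the untested second-generation libraries 51 at 2.5 h and 59 at 6 h lay below all first-generation libraries, beside 32.1% and 29.4% of all genes.

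Genes of oocyte identity did not move together. Of 20 genes, 3 were higher and 2 lower in all second-generation libraries, and the median log2 fold change was 0.22. Their summed level went the other way, with 5283, 6090 and 5143 CPM against 4723, 4794 and 4556 CPM. Dppa3, a maternal factor that protects DNA methylation in the zygote and the most abundant member, had 3251, 3681 and 3096 CPM against 2142, 2514 and 2249 CPM (log2 fold change -0.51 ± 0.15, SE; adjusted p = 0.385). Figla, a transcription factor that switches on zona pellucida genes, was lower too, with 179, 199 and 180 CPM against 118, 130 and 129 CPM. Nobox, a homeobox factor of primordial oocytes, was higher, with 271, 304 and 317 CPM against 328, 377 and 363 CPM. Ddx4, the germ cell RNA helicase, had 99.7, 97.5 and 83.1 CPM against 155, 123 and 105 CPM, and Kit, the receptor through which granulosa cells support the oocyte, 244, 279 and 284 CPM against 285, 289 and 351 CPM. These genes differed by less than 2-fold and in both directions, and none passed the test.

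The genes of oocyte growth had median differences of opposite sign at 0 h and at the later times. Of 32 genes, 3 were higher and 3 lower in all second-generation libraries. Their median log2 fold change was 0.08, but the pairs of 0, 1 and 4 h had median differences of -0.64, 0.44 and 0.38. From 0 to 4 h their median log2 difference was -0.73 in the first generation, with 12 of 32 more than 2-fold lower, whereas it was 0.30 in the second, with 8 more than 2-fold higher. The sign of the generation difference thus turned between 0 h and the later times. In fits without 1 library or with other settings, the median of the list ranged from -0.29 to 0.38. The difference between the time courses was not tested, with 1 library for each time and generation.

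Gdf9, which signals from the oocyte to granulosa cells, had 666, 352 and 386 CPM in the first generation and 325, 599 and 499 CPM in the second (log2 fold change 0.08 ± 0.33, SE; adjusted p = 0.957). Bmp15, its partner in the same family, had 161, 19.9 and 33.5 CPM against 98.8, 104 and 90.1 CPM (log2 fold change 1.10 ± 0.54, SE; adjusted p = 0.54). Without either 0 h library the log2 fold change of Bmp15 was 1.94, and it was then called (adjusted p = 0.00958 without that of the first generation and 0.00576 without that of the second). It was called without the filter on low counts as well (log2 fold change 1.09; adjusted p = 0.00134), whereas without a 1 h library the value was 0.38 or 0.39. For Gdf9 the value lay between -0.31 and 0.61 in the fits without 1 library. In the 6 libraries both genes overlapped between the generations, and the first-generation 0 h library was the highest of the 6 for each. Zp2, a zona pellucida protein, was more even, with 1900, 1541 and 1743 CPM against 2197, 2053 and 1882 CPM. Padi6, a component of the oocyte's cytoplasmic lattices, had 1251, 1297 and 1564 CPM against 1630, 1940 and 1655 CPM and was among those higher in all second-generation libraries, as were Khdc3 and Nlrp4f. Ooep, Uchl1 and Cd9 were the 3 that lay lower. Ooep had 542, 455 and 454 CPM against 392, 365 and 339 CPM.

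Of 26 meiotic prophase genes, 2 were higher and 3 lower in all second-generation libraries, and the median log2 fold change was -0.16. Sycp3, of the axial element of the synaptonemal complex, had 1124, 1209 and 1195 CPM against 1101, 929 and 739 CPM (log2 fold change -0.34 ± 0.18, SE; adjusted p = 0.567). Its value lay between -0.50 and -0.17 in the fits without 1 library. Sycp1, of its central region, was on the same side, and among the 6 libraries both had their lowest level at 4 h of the second generation. Tex15, needed for recombination, varied with time instead, with 240, 628 and 275 CPM against 599, 369 and 258 CPM.

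In these bulk libraries, fewer cells of a type and less RNA per cell cannot be told apart. Of 25 granulosa cell genes, 3 were higher and 0 lower in all second-generation libraries. In all 3 pairs 4 were higher and 4 lower, beside 3545 and 4179 of all 22715 genes. The median difference of the list was -0.21, 0.00 and 0.24 at 0, 1 and 4 h. The summed level of the 25 was 3914, 3580 and 3536 CPM against 4080, 3915 and 4422 CPM. Inha, the inhibin alpha subunit, ran in opposite directions over time, with 1363, 960 and 740 CPM against 604, 1011 and 1330 CPM (log2 fold change -0.05 ± 0.35, SE; adjusted p = 0.976). Gatm, a creatine synthesis enzyme, had 633, 739 and 788 CPM against 994, 724 and 977 CPM. Slc18a2, a vesicular amine transporter, was one of the 3 that were higher, with 384, 399 and 528 CPM against 984, 627 and 541 CPM.

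Of 20 genes of stroma and theca, 0 were higher and 3 lower in all second-generation libraries, with a median log2 fold change of -0.12 and summed levels of 4341, 5202 and 3901 CPM against 3974, 4633 and 3372 CPM. The sum and the median difference (-0.22, -0.24 and -0.14) were thus lower at each time, 5 genes were lower and 1 was higher in all 3 pairs, beside 4179 and 3545 of all 22715 genes, and over the alternative fits that kept the labels the median ranged from -0.28 to 0.06. The 3 were Dcn, Postn and Tagln. Dcn, a matrix proteoglycan, had 534, 827 and 736 CPM against 478, 483 and 317 CPM. Postn, a matrix protein, had 58.8, 112 and 114 CPM against 47.0, 55.8 and 32.2 CPM, and Tagln, of the smooth muscle cytoskeleton, 31.5, 45.7 and 20.4 CPM against 11.6, 10.9 and 9.96 CPM (log2 fold change -1.48 ± 0.28, SE; adjusted p = 0.203). The abundant collagens Col1a2, with 723, 719 and 649 CPM against 624, 735 and 575 CPM, and Col3a1 overlapped between the generations. In Col3a1 the levels were 514, 782 and 609 CPM against 671, 830 and 548 CPM.

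Markers of other cell types were low or varied by library. Endothelial genes summed to 176 to 237 CPM in the first generation and 194 to 249 CPM in the second, surface epithelium genes to 46.4 to 64.0 CPM and 37.8 to 87.6 CPM, and macrophage and leukocyte genes to 87.7 to 138 CPM and 101 to 150 CPM. Of the genes in these 3 lists, 0 were higher and 4 lower in all second-generation libraries. Red blood cell genes summed to 3606, 2379 and 6042 CPM against 3301, 3023 and 6063 CPM. This sum, which the globins make up almost entirely, was highest at 4 h in both generations. The median log2 fold change of the 8 genes was 0.90, with 4 higher and 0 lower in all 3 pairs (3545 and 4179 of the 22715 genes tested). Unadjusted p-values under 0.05 were found for 4 of the 8, all on the higher side, beside 1286 genes on that side among all tested. Among these 4, Alas2, the first enzyme of haem synthesis in red cells, had 22.2, 9.87 and 42.6 CPM against 59.4, 35.5 and 67.1 CPM (log2 fold change 1.34 ± 0.27, SE; adjusted p = 0.227). Hbb-bs, a beta globin, had 1467, 1045 and 2620 CPM against 1506, 1177 and 2438 CPM.

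The second-generation 0 h library stood apart in its granulocyte genes. Their summed level was 487 CPM there, 14 and 12.3 CPM at 1 and 4 h of the same generation and 9.04, 17.5 and 13.7 CPM in the first generation. Ngp, a protein of neutrophil granules, had 178 CPM in that library and 1.40 to 5.12 CPM in the other 5, and S100a8, a calcium-binding protein of neutrophils, 137 CPM against 1.20 to 5.69 CPM. Of the 7 granulocyte genes tested, 0 had generations that did not overlap. This library was also the one with the fewest reads, and it held the highest level of Pigr. Without it Pigr was still called, as in all 6 fits without 1 library. In that fit its partner, the first-generation 0 h library, adds nothing to the generation difference either.

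Genes of cell division were more often higher than lower. Of 24 genes, 10 (41.7%) were higher and 2 lower in all second-generation libraries, with a median log2 fold change of 0.29. Examples are Kif11, a mitotic kinesin, with 59.6, 54.1 and 55.1 CPM against 103, 69.2 and 70.9 CPM, and Prc1, of the spindle midzone, with 263, 249 and 253 CPM against 284, 289 and 300 CPM. Cdk1 and Birc5 were the 2 that lay lower. Ube2c, an enzyme that marks mitotic proteins for destruction, overlapped, with 316, 340 and 256.1 CPM against 174, 260 and 296 CPM (log2 fold change -0.31). In the fits without 1 library this value lay between -0.59 and -0.05.

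Heat shock genes and genes of the unfolded protein response were more often higher than lower. Of 18 heat shock genes, 7 (38.9%) were higher and 2 lower in all second-generation libraries. Hspa8, the constitutive chaperone, had 1030, 1069 and 1019 CPM against 1412, 1240 and 1397 CPM, and Hsp90ab1 1609, 1679 and 1740 CPM against 1834, 1887 and 2109 CPM. Hsp90aa1, with Hsp90ab1 the most abundant of the list, overlapped, with 1421, 1344 and 1206 CPM against 1462, 1076 and 989 CPM (log2 fold change -0.16). Of 26 genes of the integrated stress and unfolded protein responses, 5 were higher and 2 lower, and Xbp1 was called. Pdia4, a protein disulphide isomerase of the endoplasmic reticulum, was on the side of Xbp1 with 233, 261 and 204 CPM against 379, 369 and 332 CPM (log2 fold change 0.67 ± 0.16, SE; adjusted p = 0.3). Hspa5, the main chaperone of that compartment, overlapped, with 1198, 1254 and 625 CPM against 1716, 1288 and 1241 CPM, although it was higher in each pair.

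Of 24 cholesterol and lipid synthesis genes, 5 (20.8%) were higher and 0 lower. Insig1, which holds back sterol-driven transcription, had 141, 146 and 104 CPM against 236, 187 and 168 CPM, and Scd2, a fatty acid desaturase, 461, 451 and 449 CPM against 599, 537 and 495 CPM. In both the difference was largest at 0 h. Of 24 interferon-stimulated genes, 5 were higher and 0 lower, and the median log2 fold change was 0.44. Bst2, a membrane protein that tethers viruses, had 126, 108 and 66.2 CPM against 135, 224 and 142 CPM, with an adjusted p of 0.396. Without either 0 h library the log2 fold change of Bst2 was 1.11, and it was then called (adjusted p = 0.0306 and 0.0303). Usp18, a protease of the interferon response, was rare, with 1.07, 2.15 and 2.77 CPM against 6.34, 8.27 and 4.87 CPM.

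Of 28 genes of glycolysis and hypoxia, 5 were higher and 2 lower, with a median log2 fold change of 0.17. Pdk1, a pyruvate dehydrogenase kinase, had 30.2, 19.9 and 33.2 CPM against 50.4, 47.5 and 48.3 CPM. Vegfa, the angiogenic growth factor, was on the other side, with 19.1, 11.7 and 12.7 CPM against 5.37, 4.68 and 3.53 CPM. Of 22 immediate early genes, 2 were higher and 5 lower, and the median log2 fold change was -0.35. Egr1, a transcription factor switched on within minutes of stimulation, had 183, 141 and 121 CPM against 78.3, 37.5 and 75.1 CPM (log2 fold change -1.24 ± 0.25, SE; adjusted p = 0.227). Klf6 was the main exception, with 102, 112 and 88.8 CPM against 155, 149 and 136 CPM. Neither Egr1 nor Vegfa passed the test, although their groups were apart.

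Targets of p53, which the oocyte's p63 also activates, had close summed levels in the generations at 0 and 1 h, and a higher sum in the second at 4 h. Of 30 genes, 0 were higher and 0 lower in all second-generation libraries, a count that genes with a large difference over time can hardly reach. Pair by pair, 7 were higher and 1 was lower at all 3 times, where 3545 and 4179 of the 22715 genes tested were, and the median log2 fold change was 0.25. Their summed level was 979, 958 and 1727 CPM against 972, 942 and 2582 CPM, close at 0 and 1 h and higher at 4 h in both generations. From 0 to 4 h their median log2 difference was 1.07 in the first generation and 1.54 in the second, and 16 and 21 of 30 were more than 2-fold higher. Mdm2, the ubiquitin ligase of p53, had 59.3, 53.2 and 235 CPM against 66.1, 74.5 and 467 CPM (log2 fold change 0.58 ± 0.21, SE; adjusted p = 0.432). Whether the difference between 0 and 4 h differed between the generations was not tested.

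Of 20 imprinted genes 2 were higher and 3 lower, of 20 MHC class I genes and their partners 2 and 1, of 13 genes known to vary between mouse stocks 3 and 0, and of 20 matrix and adhesion genes 1 and 1. Of 19 signalling targets 2 were higher and 1 lower, of 36 clustered histone genes 6 and 3, of 12 abundant non-coding RNAs 1 and 3, of 6 sex-linked genes 0 and 1, and of 389 zinc finger genes 24 and 29. Of the Y-linked genes among the 6, Kdm5d had 155, 65.2 and 75.0 CPM against 83.5, 99.6 and 106 CPM, although the mice were female. Ddx3y, Eif2s3y and Uty had at most 2.37 CPM in these libraries. The source of the reads assigned to Kdm5d was not tested. The 645 olfactory and vomeronasal receptor genes tested had 14 higher and 51 lower. Cdkn1c, an imprinted inhibitor of the cell cycle, was one of the lower ones, with 36.9, 49.4 and 45.6 CPM against 23.8, 28.2 and 22.2 CPM. H2-D1, a classical class I gene that differs between haplotypes, was higher with 352, 365 and 316 CPM against 613, 406 and 466 CPM.

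**Figure D5:**
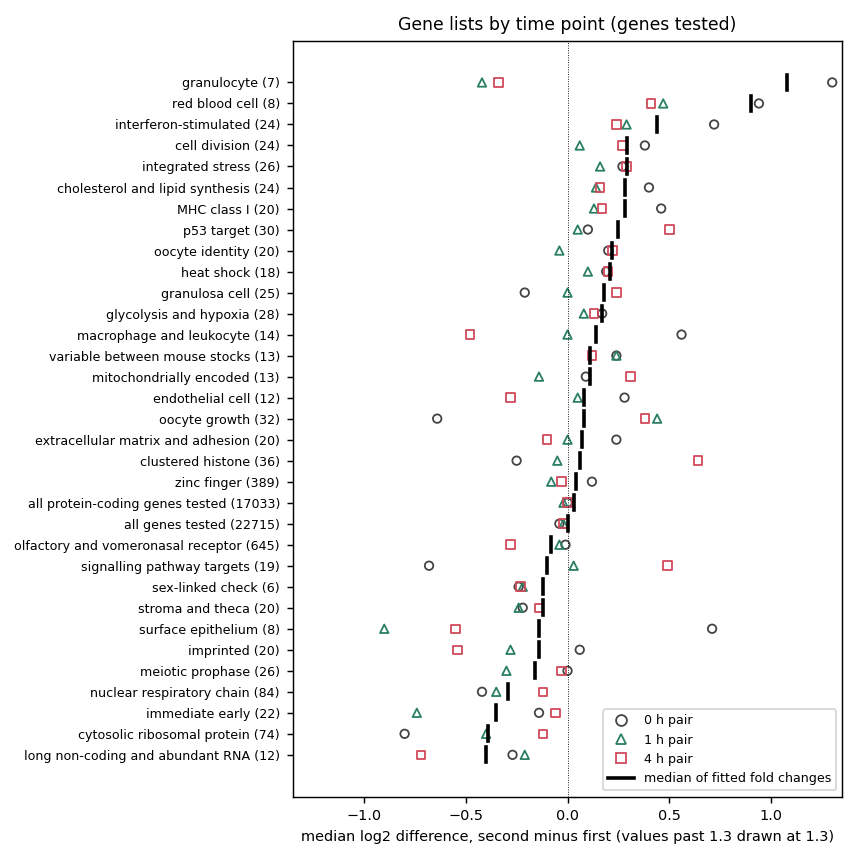
Median log2 difference of the second against the first generation over the tested members of each gene list (horizontal axis, numbers of genes in brackets), for the pairs of 0, 1 and 4 h as open symbols and for the fitted fold changes as a black bar. For ribosomal proteins the symbols lie at -0.80, -0.40 and -0.12, for oocyte growth genes on both sides of 0, and the granulocyte value of 0 h, 5.78, is drawn at the edge.

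If the 1 and 4 h libraries were exchanged between the generations as the read totals of the sequencing list have it, no gene was called with edgeR's test. Unadjusted p-values under 0.05 were found for 716 genes, and the smallest adjusted p was 0.373. DESeq2 called 53 genes in that arrangement, and edgeR without a filter on low counts called 84. The genes with the smallest p were Stfa1, BC117090 and Pcdhb8 on the higher side, with log2 fold changes of 5.49, 4.31 and 2.84, and Oog4, Fbxw14 and C87977 on the lower side, with -2.65, -1.88 and -1.94. Under the labels, Oog4, Fbxw14 and C87977 were called as higher and Stfa1 and BC117090 as lower when either 0 h library was left out. All 21 genes called under the labels reversed their sign, and the median log2 fold change of the ribosomal protein genes was -0.13.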

How the data were processed

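RNA-seq libraries were made from oocytes of P5 CD-1 ovaries by SMARTER reverse transcription and sequenced as 30 bp reads. The authors computed the estimated counts per transcript with salmon on mouse transcripts of GRCm38 and deposited them per library, neither normalized nor filtered. The TPM values, scaled by salmon within each library, were deposited in the same files. Deposited tables of the authors' own comparisons hold log2 fold changes and p-values against 0 h from DESeq2 1.24.0, the version in the submitters' processing notes, and a merged table pools the generations. None of these tables was used.

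For each of 49585 annotated genes, the estimated counts of its transcripts were added up and rounded, leaving out 402 transcripts without a gene (at most 0.413% of the reads of the 6 libraries compared). The libraries compared held 15709549 to 28169108 estimated reads. A count of 0 allows up to 3 reads, which covers counting error only. The genes were filtered with filterByExpr, scaled by TMM and tested with edgeR 4.0.16 (quasi-likelihood, time point as block, Benjamini-Hochberg adjustment), and the SE is the absolute log2 fold change divided by the root of F. Printed CPM were scaled over all 13 libraries. Log2 CPM used a prior count of 2. Families join genes that share at least 50% of the 30-base windows of either member, in the GRCm38 transcripts of the reference annotation. R 4.3.3, limma 3.58.1, DESeq2 1.42.0, Python 3.11.15, pandas 2.3.3 and numpy 2.4.6 were used. The steps were tested on simulated data, where some unchanged genes were called and some changed ones were missed.

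The comparison and the gene lists were chosen with earlier results of these data known, so no list was tested as a set. Genes were named if they were Gdf9, Bmp15, among the 10 called protein-coding genes with the largest rise or fall (same sign at all times, mean of at least 1 CPM), or among the 2 most abundant or 3 most changed called members of a list. Where the exchanged assignment of the 1 and 4 h libraries gave no call, the 3 genes of smallest p in each direction were named. All other genes named were chosen after their values were seen. Alternatives were another assignment of libraries, other normalizations, filters, tests and scales, all 13 libraries, no block for time and fits without 1 library. The family sums and a correction for GC content were added after seeing the data. Some genes are not reported here.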

Additional observations from a re-analysis of the deposited data

Results flagged for a closer look

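The level of each called gene was checked over the 5 second-generation libraries of 0.5 Gy for a library far from the others. Of 21 genes, 3 had one, where chance gives about 1 in 20 such groups. Med30 was lowest at 6 h, and the gap to the next library was 0.722 of the range (critical value 0.71). Gm9843 was lowest at 0 h, with a gap of 0.953 of the range, and Gm20716 was lowest in the same library, with a gap of 0.904. Gm9843 is a processed pseudogene contained in Fau, and Gm20716 shares 99.5% of its windows with other genes and forms a family with Adnp. Reads of both genes can be assigned to these partners.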

How the results depend on the processing

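As labelled, the 21 called genes became 462 without a filter on low counts, 261 with DESeq2, 32 with limma-voom, 43 with all 13 libraries, 11 for families and 1 with limma-trend on log2(TPM + 1). Fits without 1 library gave 6 to 121. The libraries were paired by time point, and without this replicate block the count was 34, of which 14 were among the 21. RLE gave 19, upper-quartile scaling 17, a mean of at least 1 CPM 28 and the GC correction 20. All 21 genes kept their direction in the 17 alternatives that kept the labels and counted each gene alone, and these lost calls for some of them. Summed with their families, 4 genes called as higher (Gm9843, Gm15427, Gm14586 and Gm20716) had negative values. AY036118 was called in 16 of the 17, and Chchd10, Pigr and Ndfip1 were called in 15 each. The 17 include the main fit without its threshold on the log2 fold change, which could lose no call. They also include the 6 fits without 1 library, which repeat each other by time point, as each removes the pair from the difference. The causes of the lost calls were not tested. Under the exchanged assignment, 0 genes were called with edgeR, 84 without the filter, 53 with DESeq2, 21 with the labels restored and 0 to 121 without 1 library.

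With the 1 and 4 h libraries exchanged, the log2 fold changes reversed to -6.77 for Gm20716, -4.54 for Gm20509, -2.06 for Pigr, -1.56 for Chchd10, -1.47 for Pgls, -1.14 for Med30, -0.54 for Tmprss13, -0.75 for Ndfip1, -1.14 for Kpna2, -0.66 for Rnaset2b, -0.57 for Xbp1, -8.71 for Gm9843, -5.49 for Gm15427, -0.67 for Gm14586 and -9.64 for AY036118. They reversed to 0.63 for Dppa3-ps, 0.60 for Rpl17-ps5, 1.40 for Gm13862, 0.79 for Gm15501, 2.04 for Gm26526 and 0.80 for Gm28437. This follows from the exchange, which turns the sign of 2 of the 3 pairs. With 3 libraries a side and the shallowest at 15709549 reads, differences that miss the threshold are not shown to be absent, and the generation cannot be told apart from anything else that differed between the libraries.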
